A study of Mus musculus with 6 samples.

Results

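The genes described here are 9 linked to the naive and central memory states of T cells and to travel through lymphoid tissue: Ccr7, Klf2, Il7r, Tcf7, Lef1, Foxo1, Bach2, Satb1 and Cd44. They were chosen by name, by a rule that uses no measured value but with earlier results of these data known, and make up 9 of the 27376 gene names on the array. All 9 were represented, by 19 probes, of which 18 were bright enough to be tested. Cells of both groups were induced regulatory T (iTreg) cells from the spleens of C57BL/6 mice aged 6 weeks, grown for 4 days from sorted naive CD4+CD25-Foxp3gfp- T cells. Both cultures received plate-bound anti-CD3 at 5 μg per ml, soluble anti-CD28 at 2 μg per ml, TGF-β1 at 5 ng per ml and IL-2 at 40 ng per ml. The tissue and the concentrations are those of the labels. The study's methods give a lower IL-2 concentration for iTreg cultures and name lymph nodes beside the spleen. The cKO group came from miR-31 fl/fl CD4Cre mice, in which Cre driven by Cd4 regulatory sequence removes the floxed miR-31 allele in T cells, including those of the CD8 lineage, from the thymus onwards. The control group came from miR-31 fl/fl mice, which carry the floxed allele without Cre, so the transgene and the deletion differ between the groups together. RNA of 3 mice per group was hybridized, 1 one-colour array for each mouse, and every value is a property of the whole culture. Fewer cells of a type and less RNA per cell cannot be told apart in such RNA. No probe is named for miR-31, so its deletion could not be read on these arrays.

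CCR7 follows the chemokines CCL19 and CCL21 into lymph nodes, and its surface expression is a mark of naive and central memory T cells. In resting T cells FOXO1 sits in the nucleus and sustains transcription of Klf2, Il7r and Ccr7. Signalling through the T-cell receptor, PI3K and AKT moves FOXO1 out of the nucleus, and this programme declines as cells become effectors. TCF-1 (Tcf7) and LEF-1 keep T cells in an early state, BACH2 represses effector genes, SATB1 organizes T-cell chromatin, and CD44, an adhesion receptor for hyaluronan, marks cells that have met antigen.

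The microRNA removed in the cKO cells is mmu-miR-31. Its mature sequences are shown because the seed (bases 2 to 8, in capitals) is the part that pairs with target messenger RNA. The 5p strand lies at chr4:88910614-88910635 and the 3p strand at chr4:88910577-88910599, both on the minus strand of GRCm38.p6 and both taken from RefSeq.
mmu-miR-31-5p: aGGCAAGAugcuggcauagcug
mmu-miR-31-3p: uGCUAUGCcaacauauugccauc
The 60-base probes of the 9 genes hold the complement of the 5p seed, TCTTGCC, in 0 of 19 cases, and 0.323% of all 41174 probes on the array hold it. A probe covers a small stretch of a transcript, so this count says nothing of the remainder of each messenger RNA.

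Signals are given as the log2 processed signal minus that of the 75th percentile on each array. A log2 fold change is the cKO mean minus the control mean on that scale, and a value written as "-fold" is the same difference on the linear scale. A level is compared only with the level of the same probe on another array. Ccr7 and Il7r had the widest gaps between the genotypes. On the brightest probe of each, Ccr7 was 1.76-fold and Il7r 4.10-fold higher in cKO iTreg cells, with all 3 cKO arrays above all 3 control arrays. Lef1, at −0.30, was the only gene of the 9 with a lower cKO mean, although a normexp background correction with the same scaling also put Klf2, Foxo1 and Satb1 below 0. The other 6 genes, Klf2, Tcf7, Foxo1, Bach2, Satb1 and Cd44, had log2 fold changes between 0.06 and 0.31 and overlapping groups. None of the 9 passed the threshold of 0.05 after limma's Benjamini-Hochberg adjustment over all 22281 tested probes, of which 0.242% passed. At an unadjusted p under 0.05, 2 of the 9 genes were higher and 0 were lower in cKO cells, where 11.5% of all tested probes were higher and 11.4% were lower. All cKO arrays lay above all control arrays for 2 of the 9 genes and below them for 0, against 15.9% and 20.7% of tested probes. With so few genes, these counts are not read as a result about the set. The median log2 fold change was 0.27 over the 9 genes and −0.04 over all tested probes.

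**Figure D1:**
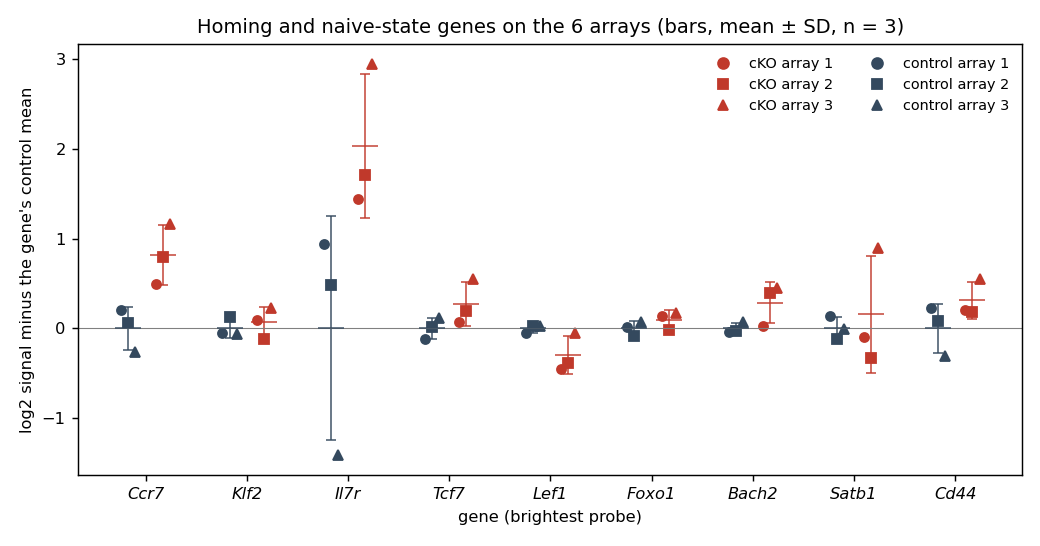
Log2 signal of the brightest probe of each of the 9 genes on each array, minus that gene's control mean, with cKO arrays in red and control arrays in dark grey; horizontal marks and bars are the group mean and SD (n = 3). Ccr7 and Il7r are the genes whose cKO points all lie above the control points, and the Il7r values of both groups spread by more than those of the other genes.

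Ccr7 was read by a single probe, which lies at chr11:99005513-99005538 of mm9, the build of the array's annotation, and is assigned to NM_007719. Its log2 signal was 5.20, 5.51 and 5.87 on cKO arrays 1 to 3 and 4.92, 4.77 and 4.45 on control arrays 1 to 3. The highest control array was thus 0.28 below the lowest cKO array. The means were 5.53 ± 0.34 in cKO and 4.71 ± 0.24 in control cells (SD, n = 3), a log2 fold change of 0.81 with a standard error of 0.21 and a 95% interval of 0.30 to 1.33. limma gave an unadjusted p of 0.0079 and an adjusted p of 0.138. The exact 2-sided permutation test gave p = 0.1, the smallest value that 3 arrays against 3 allow. The Ccr7 difference was 0.61 among the arrays of slide 1, which held all cKO arrays and control array 1, and 0.64 to 0.98 when any 1 array was left out. Its adjusted p ranged from 0.042, with arrays weighted by their noise, to 0.729, with the slide as a term. With those weights 2205 of all tested probes passed the adjusted threshold, against 54 as reported.

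Il7r, which encodes the IL-7 receptor α chain that naive and memory T cells need to survive, had 3 probes. The brightest lies at chr15:9435976-9436035 (mm9, NM_008372). On cKO arrays 1 to 3 it read 2.61, 2.88 and 4.12, and on control arrays 1 to 3 it read 2.11, 1.65 and −0.25. Control array 3 was the lowest and cKO array 3 the highest, and both stood apart from the other arrays of their group. The means were 3.20 ± 0.81 and 1.17 ± 1.25 (SD, n = 3), and the log2 fold change was 2.03 with a standard error of 0.69 and a 95% interval of 0.35 to 3.72. The unadjusted p was 0.0254 and the adjusted p was 0.179 in limma, with a range of 0.140 to 0.737 over the alternatives. Without control array 3 the difference was 1.33, and without cKO array 3 it was 1.58. Within slide 1, where the only control is array 1, it was 1.10. Without control array 1 it was 2.50.

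The second Il7r probe, at chr15:9440943-9441002, read −1.66, −1.19 and −0.07 on the cKO arrays and −2.04, −2.35 and −4.14 on the control arrays. Its log2 fold change was 1.87 with a standard error of 0.65 and an adjusted p of 0.186. The dimmest probe, at chr15:9442570-9442629 and annotated to AK041838, was too dim to be tested. Its spot cleared the software's background test on 2 of the cKO and 0 of the control arrays. The cKO mean was 1.88-fold the mean of the dimmest signals that the control arrays measured above background. This is not a strict lower bound, as the cKO mean includes an array whose spot did not clear that test. Both tested Il7r probes and the Ccr7 probe put the 6 arrays in an identical order: cKO array 3 was the highest, followed by cKO arrays 2 and 1, then control arrays 1, 2 and 3. That order was found in 591 of the 22262 tested probes with a value on every array, or 2.65%.

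**Figure D2:**
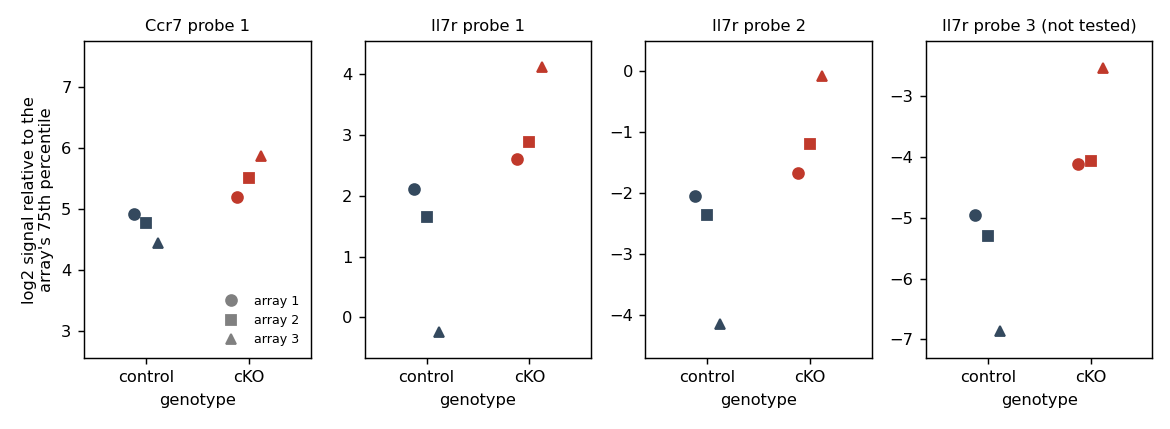
Log2 signal, scaled to the 75th percentile of each array, for the Ccr7 probe and the 3 Il7r probes on the control (dark grey) and cKO (red) arrays, 1 point per array; the panels have different levels and equal spans. In every panel the 3 cKO points lie above the 3 control points, and control array 3 is the lowest.

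Cd44, the hyaluronan receptor, was read by 3 probes whose groups overlapped. The brightest, at chr2:102652907-102652966 (mm9, NM_009851), read 3.93, 3.90 and 4.28 on the cKO arrays and 3.95, 3.80 and 3.42 on the control arrays. Its log2 fold change was 0.31 with a 95% interval of −0.14 to 0.76 and an adjusted p of 0.332 in limma. Control array 1 was level with cKO arrays 1 and 2. A probe spotted 10 times on each array gave 0.40 with a standard error of 0.20 and an adjusted p of 0.271. The dimmest probe gave 0.20 with an adjusted p of 0.682.

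Foxo1, whose product drives much of this set in resting cells, was nearly level between the genotypes. Its brightest probe (chr3:52150183-52150242, mm9, NM_019739) read 4.94, 4.78 and 4.97 on the cKO arrays and 4.81, 4.72 and 4.87 on the control arrays. This gave a log2 fold change of 0.10 with a 95% interval of −0.16 to 0.36, and the adjusted p was 0.588. With a normexp background correction it was −0.14 under 75th percentile scaling and 0.16 under quantile normalization. A second probe gave 0.05 with an adjusted p of 0.817. Messenger RNA levels do not show where in the cell the protein was.

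Klf2, which encodes the transcription factor that turns on the lymphocyte exit receptor S1pr1, had the narrowest gap of the 9 genes. Its brightest probe (chr8:74843761-74843820, mm9, NM_008452) read 4.89, 4.68 and 5.02 on the cKO arrays and 4.74, 4.92 and 4.74 on the control arrays. The log2 fold change was 0.06 with a 95% interval of −0.25 to 0.38, and the adjusted p was 0.772. The second probe gave 0.01, with an interval of −0.36 to 0.38 and an adjusted p of 0.980. The direction was negative for both probes with the normexp correction under 75th percentile scaling (−0.18 and −0.19, against 0.12 and 0.09 under quantile normalization), with array weights (−0.11 and −0.18) and without cKO array 3 (−0.015 and −0.083).

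Tcf7, which encodes TCF-1, was slightly higher in cKO cells, with overlap. The brightest probe (chr11:52066114-52066173, mm9, NM_009331) read 1.99, 2.12 and 2.47 on the cKO arrays and 1.80, 1.94 and 2.03 on the control arrays. Only cKO array 1 lay within the control range. The log2 fold change was 0.27 with a 95% interval of −0.10 to 0.64 and an adjusted p of 0.320, and a second probe gave 0.17 with an adjusted p of 0.614.

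Lef1, the partner of Tcf7, had the opposite sign on its brighter probes. The first, annotated across chr3:130907851-130926012 (mm9, NM_010703), read 3.91, 3.99 and 4.32 on the cKO arrays and 4.32, 4.40 and 4.40 on the control arrays. The overlap came from cKO array 3, which was level with control array 1. The log2 fold change was −0.30 with a standard error of 0.14, a 95% interval of −0.63 to 0.03 and an adjusted p of 0.239. A second probe gave −0.33 with an adjusted p of 0.339, and the dimmest, measured above background on 2 arrays of each group, gave 0.13 with an adjusted p of 0.807. With array weights both brighter probes passed, at −0.39 (adjusted p of 0.043 in limma) and −0.53 (adjusted p of 0.041). In that setting 2205 of the 22281 tested probes passed, against 54 as reported, so the pass is not particular to Lef1. The lowest weight of the 6 arrays, 0.173, was that of cKO array 3.

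Bach2, the repressor of effector genes, had 1 probe (chr4:32668066-32668125, mm9, NM_001109661). It read 4.53, 4.90 and 4.95 on the cKO arrays and 4.47, 4.48 and 4.58 on the control arrays, and cKO array 1 lay inside the control range. This gave a log2 fold change of 0.29 with a 95% interval of −0.06 to 0.63 and an adjusted p of 0.269. Satb1, the chromatin organizer, rested on a single array. Its brightest probe (chr17:51879137-51879196, mm9, NM_009122) read 2.29, 2.05 and 3.27 on the cKO arrays and 2.51, 2.26 and 2.37 on the control arrays. The log2 fold change was 0.15 with a 95% interval of −0.62 to 0.93 and an adjusted p of 0.780, and without cKO array 3 it was −0.21. The second Satb1 probe gave 0.18 with an adjusted p of 0.767, and −0.24 without cKO array 3.

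**Figure D3:**
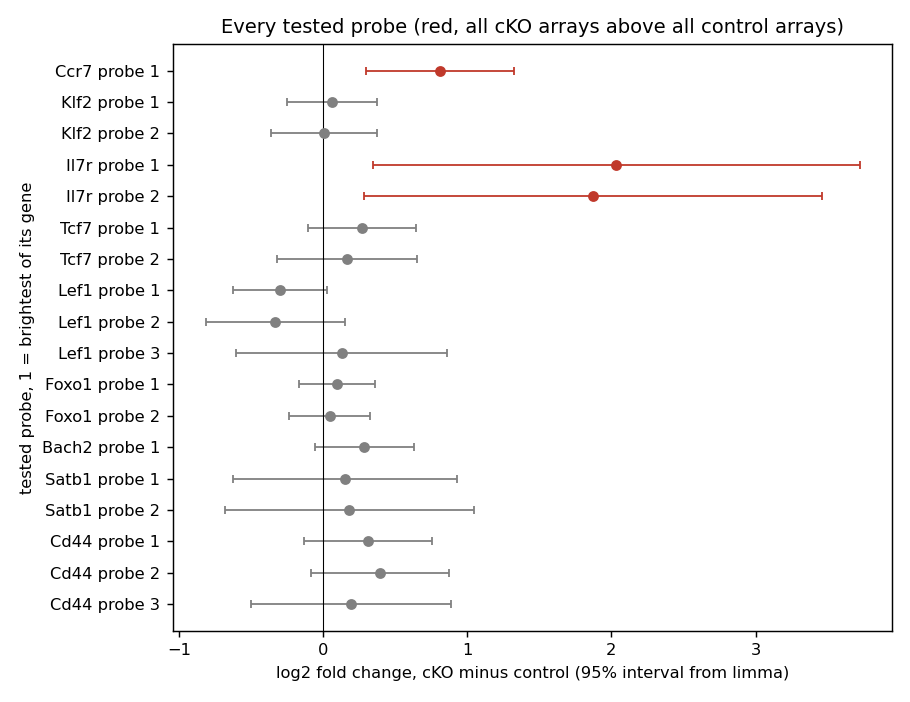
Log2 fold change (cKO minus control) of the 18 tested probes of the 9 genes, with 95% intervals from limma (n = 3 arrays per group); red marks probes whose cKO arrays all lie above the control arrays. The intervals of the Ccr7 probe and of both tested Il7r probes lie above 0, and those of the other 15 probes include 0.

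The windows around the annotated start sites of these genes are described because the products of several members bind DNA. RefSeq windows of 300 bases (250 before and 50 after a start, GRCm38.p6) were at hand for 8 of the 9 genes, not for Ccr7, and numbered 16 because some genes have several starts. A forkhead core (GTAAACA, or TGTTTAC on the other strand) was in 1 of the 16 windows, of Tcf7, and in 3.65% of all 32851 windows. The CACCC element of KLF proteins (or GGGTG) was in 11 of the 16 windows, of Klf2, Lef1, Satb1 and Tcf7, and in 57.5% of all windows. The TCF/LEF core (CTTTGA, or TCAAAG) was in 2 of the 16 windows, of Bach2 and Lef1, and in 16.0% of all windows. The seed complement TCTTGCC, on the strand that has the letters of the RNA, was in 1 of the 16 windows, of Klf2, and in 2.25% of all windows. Searches on both strands were run for the first 3 motifs, a match is a description of letters and not of binding, and the windows of Il7r, Klf2 and the second listed start of Tcf7 are shown with every match in capitals. Il7r is shown as the gene with the widest gap, and its window (chr15:9529827-9530126, minus strand) held none of the 4 motifs. That of Klf2 (chr8:72318812-72319111, plus strand) held GGGTG 19 bases before the start and TCTTGCC from base 36 after it. That of Tcf7 (chr11:52282546-52282845, minus strand) held GGGTG 75 and 69 bases before the start and GTAAACA from base 2 after it, and the motifs did not overlap.
Il7r: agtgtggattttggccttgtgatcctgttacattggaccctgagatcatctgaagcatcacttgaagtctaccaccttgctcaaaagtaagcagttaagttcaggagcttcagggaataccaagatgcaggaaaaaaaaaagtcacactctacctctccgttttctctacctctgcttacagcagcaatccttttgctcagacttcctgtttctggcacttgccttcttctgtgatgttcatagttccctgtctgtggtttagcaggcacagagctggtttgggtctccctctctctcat
Klf2: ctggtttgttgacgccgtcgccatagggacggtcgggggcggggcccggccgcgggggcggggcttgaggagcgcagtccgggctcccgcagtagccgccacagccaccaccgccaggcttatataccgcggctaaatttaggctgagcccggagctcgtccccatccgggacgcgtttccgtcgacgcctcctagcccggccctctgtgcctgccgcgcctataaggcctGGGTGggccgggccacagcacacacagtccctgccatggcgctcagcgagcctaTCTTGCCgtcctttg
Tcf7: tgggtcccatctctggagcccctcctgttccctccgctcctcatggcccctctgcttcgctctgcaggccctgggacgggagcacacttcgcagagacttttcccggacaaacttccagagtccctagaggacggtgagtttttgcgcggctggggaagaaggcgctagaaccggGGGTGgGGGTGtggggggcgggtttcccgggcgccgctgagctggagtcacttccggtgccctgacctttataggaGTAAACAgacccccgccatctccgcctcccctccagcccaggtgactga

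S1pr1, the receptor for sphingosine-1-phosphate by which lymphocytes leave lymph nodes, was read alongside. It gave 2.42, 2.70 and 3.36 on the cKO arrays and 2.51, 2.39 and 2.25 on the control arrays. The groups overlapped through cKO array 1, and the log2 fold change was 0.44 with a 95% interval of −0.16 to 1.05 and an adjusted p of 0.311 in limma. Without cKO array 3 it was 0.18. Of 9 tested genes for other homing receptors and integrins, 2 were higher and 0 lower at an unadjusted p under 0.05. Over all tested probes the shares called higher and lower were 11.5% and 11.4%. The median of the 9 genes was 0.11. The higher genes were the LFA-1 subunits Itgb2 (0.30, adjusted p of 0.161 in limma) and Itgal (0.27, adjusted p of 0.190). Their lowest values over the alternatives were 0.0093 and 0.035.

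In a list of 24 further genes of the naive T-cell programme, 22 were tested, 4 were higher and 5 lower in cKO cells at an unadjusted p under 0.05 (11.5% and 11.4% of all tested probes), and the median log2 fold change was −0.02. The higher genes were Cd7 (1.63), Ly6c1 (1.43), Themis (0.83), which aids T-cell receptor signalling, and Actn1 (0.55). The lower genes included Id3 (−0.55), an inhibitor of E proteins, Runx1 (−0.55), and Foxp1 (−0.44), a factor of T-cell quiescence. With the slide as a term, the differences of Ly6c1 and Cd7 were 0.71 and 1.02. Klf3 had a log2 fold change of −0.36 with an adjusted p of 0.299. None passed the adjusted threshold, the lowest adjusted p being 0.098 for Actn1.

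Of 21 genes that act on FOXO1 through PI3K, AKT, mTOR and related kinases, 20 were tested, with a median of 0.0075. At an unadjusted p under 0.05, 3 were higher and 1 was lower (11.5% and 11.4% of all tested probes). The lower gene was Sgk1, a kinase that phosphorylates FOXO proteins. It read 4.62, 4.70 and 3.08 on the cKO arrays and 5.18, 5.20 and 5.75 on the control arrays, a log2 fold change of −1.24 with an adjusted p of 0.195 in limma. Without cKO array 3 the difference in Sgk1 was −0.72. The higher genes were Rictor (0.59, adjusted p of 0.178), a subunit of mTORC2, with its 8 probes ranging from −0.19 to 0.95, the AKT phosphatase Phlpp1 (0.42) and the AKT kinase Pdpk1 (0.24). Neither of the 2 probes for Foxo3 was bright enough to be tested.

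Of 30 genes of activation, memory and effector T cells, 28 were tested, 9 were higher and 0 lower at an unadjusted p under 0.05 (11.5% and 11.4% of all tested probes), and the median log2 fold change was 0.42. The widest gap was for Prdm1, which encodes BLIMP-1, a repressor of the memory state. It read −1.05, −1.56 and −0.60 on the cKO arrays and −2.21, −2.62 and −3.58 on the control arrays, a log2 fold change of 1.73 with an adjusted p of 0.122 in limma. Ifng (1.41), Ccr6 (0.95), Ctla4 (0.94), Bhlhe40 (0.73) and Batf (0.68) were also higher at an unadjusted p under 0.05, with adjusted p-values from 0.135 to 0.216, and the groups overlapped for Ccr6. With the slide as a term the median of this list was 0.19, and the differences of Prdm1 and Ifng were 1.14 and 0.35. Il2ra, the high-affinity IL-2 receptor chain, had a log2 fold change of −0.56 with an adjusted p of 0.332.

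**Figure D4:**
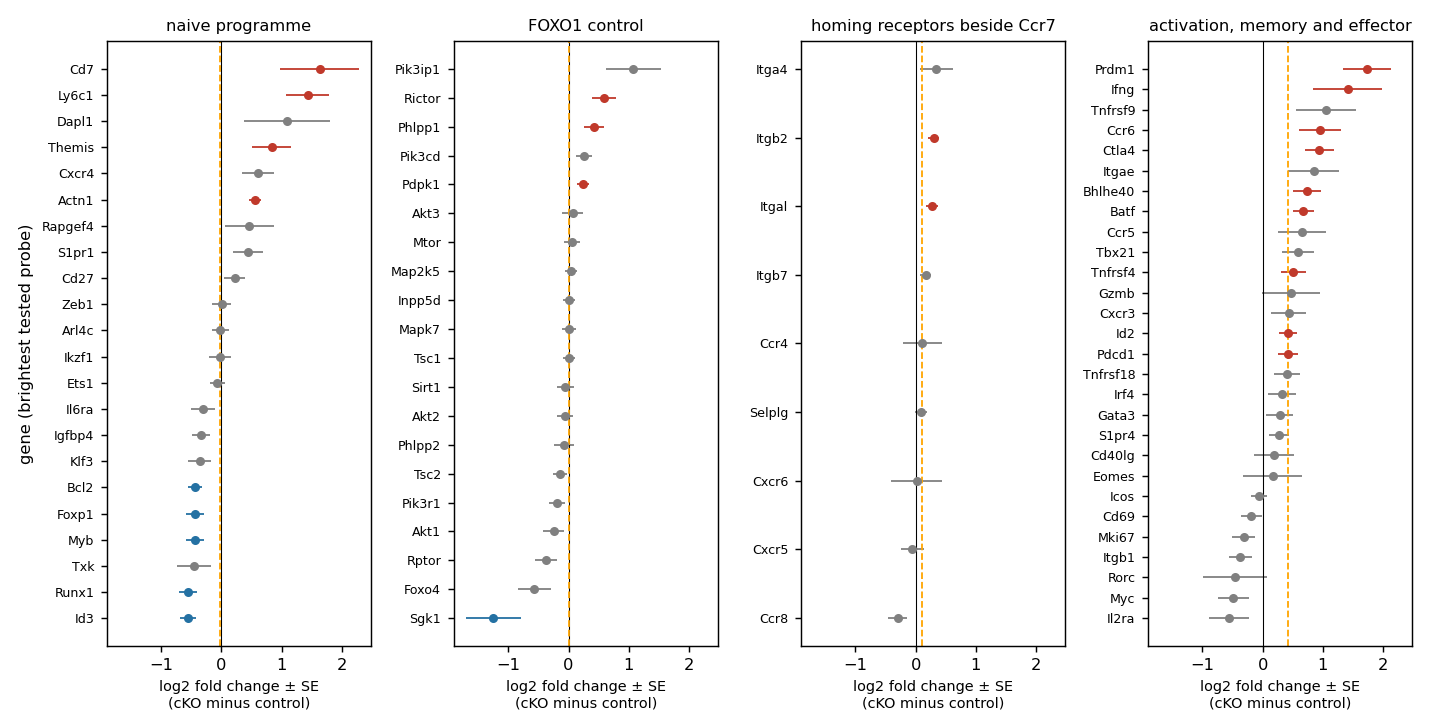
Log2 fold change (cKO minus control) and standard error from limma for every tested gene of 4 related lists, read on its brightest tested probe (n = 3 arrays per group); red and blue mark an unadjusted p under 0.05 and the dashed line is the median of the list. The medians are −0.02, 0.0075, 0.11 and 0.42 from left to right.

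For each of the 9 genes the nearest pattern among 87 genes of these lists was sought, as the smallest root mean square difference between profiles centred on their mean over the 6 arrays. Ccr7 was nearest to Ctla4 (0.112) and Bhlhe40 (0.159), and Il7r to Cd7 (0.450) and Prdm1 (0.477). Tcf7 and Bach2 were each other's nearest genes, at 0.0995. Lef1 was nearest to Pik3r1 (0.0574), Foxo1 to Inpp5d (0.0590), Klf2 to Itgb7 (0.0954), Satb1 to Itga4 (0.190) and Cd44 to S1pr4 (0.0643). The values are log2 units, all genes share the same 6 arrays, and nearly level genes are near each other by construction.

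The labelled cell type was read from marker lists fixed by name. All 6 T-cell markers and all 6 iTreg markers named on the array were well above background on every array. The summed iTreg signal, in units of the array's 75th percentile, was 196 to 215 in cKO and 157 to 199 in control cells. Most of that sum came from Tnfrsf18, whose log2 fold change was 0.40 with overlapping groups. Foxp3, the defining iTreg gene, had a log2 fold change of −0.62 with an adjusted p of 0.192 in limma, and all its cKO arrays were below the control arrays. Summed T-cell markers were 197 to 264 against 179 to 192. CD8 markers summed to 3.87 to 4.34 against 4.42 to 5.61 and B-cell markers to 0.559 to 1.28 against 0.391 to 0.633, with 1 of 6 B-cell markers well above background on every array and Cd22 and Blk on none. NK markers, 1 of 4 of them well above background on every array and Klrb1c on none, summed to 48.5 to 57.1 against 24.7 to 44.0, nearly all of it from Nkg7, a granule gene that T cells also use. Erythroid markers summed to 1.33 to 2.19 against 0.466 to 0.893, with 2 of 5 well above background on every array and Alas2 on none. Epithelial markers summed to 1.30 to 1.95 against 0.805 to 0.901, with 2 of 4 well above background on every array and Krt8 on none, and myeloid markers, with 1 of 7 well above background on every array and Emr1 and Itgax on none, to 0.287 to 0.357 against 0.249 to 0.425. The sums of the T-cell, NK, erythroid and epithelial lists were higher in cKO cells without overlap, as for Ccr7 and Il7r. Not every member of these lists went that way. The brightest Cd3e probe was lower without overlap (−0.28), though the Cd3e probes ranged to 0.78. Hba-a1, too dim to be tested, averaged −5.61 in cKO and −3.73 in control cells. The sum of the CD8 list was lower without overlap, and the part of these lists in the Ccr7 and Il7r results was not tested.

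The arrays lay on 2 slides, scanned separately. Slide 1 held the 3 cKO arrays and control array 1, and slide 2 held control arrays 2 and 3. With the slide as a term, 0 of the 9 genes had an unadjusted p under 0.05 in limma. The comparison then rests on control array 1, and the Ccr7 and Il7r differences were 0.61 and 1.10. A difference between the slides and a loss of precision cannot be told apart here. Ccr7 and Il7r kept their sign in every alternative run, as did the brightest probes of Tcf7, Lef1, Bach2 and Cd44.

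**Figure D5:**
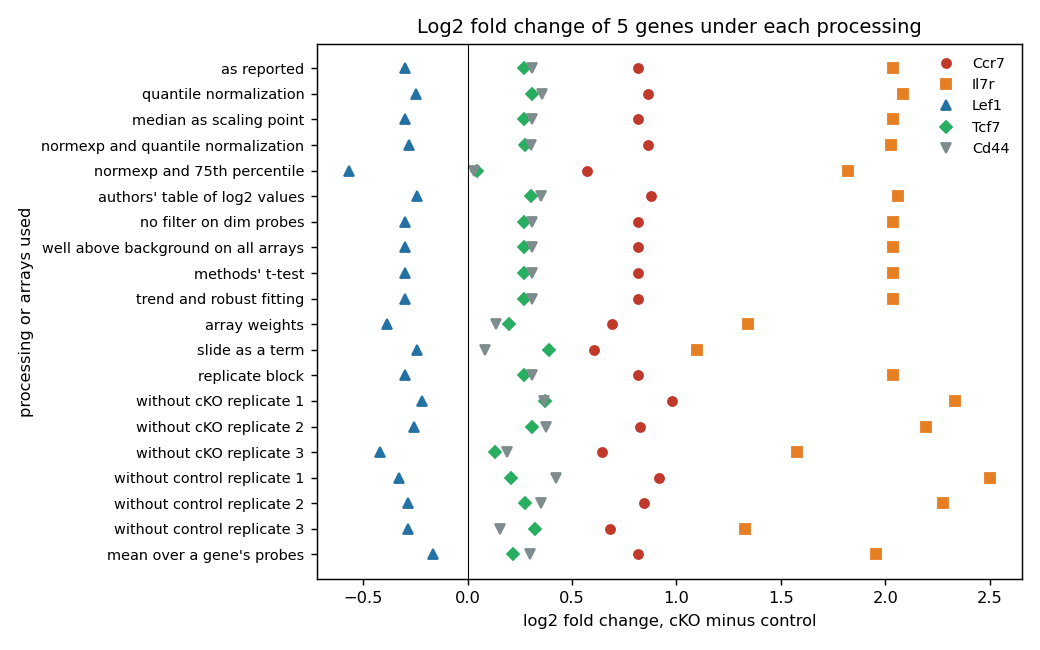
Log2 fold change (cKO minus control) of the brightest probe of Ccr7, Il7r, Lef1, Tcf7 and Cd44 as reported and under each alternative processing or set of arrays. Ccr7 ranges from 0.57 to 0.98 and Il7r from 1.10 to 2.50, Lef1 stays below 0, and Tcf7 and Cd44 stay above 0.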

How the data were processed

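RNA was labelled with Cy3, hybridized to Agilent whole mouse genome arrays and read by the authors with Agilent Feature Extraction (version 9.1 in the submitters' processing notes, 10.7.3.1 in the file headers). The deposited intensity values are linear, background-subtracted by that software and not scaled between arrays. A deposited table of log2 values, normalized by the authors in a way not given in the sources used here, correlated with the log2 signal of the same array at 0.998 or more and served as an alternative. All its columns were assigned. Each array had 45018 spots, of which 43379 were not controls. Outlier spots (123 to 140 per array) were dropped, 0 spots were saturated, and 49.3% to 57.7% of spots were well above background.

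Signals were taken as log2, the array's 75th percentile (signal of 987 to 1148) was subtracted, and the spots of a probe were averaged. A probe was tested if it was well above background on at least 3 of 6 arrays (22281 of 41174 probes). Groups were compared with lmFit and eBayes (limma 3.58.1, R 4.3.3), with no block, and p-values were adjusted over all tested probes by the Benjamini-Hochberg method at a threshold of 0.05. The procedure was tested on simulated data. A gene was read on its brightest tested probe, and the other probes are given beside it. The dimmest Il7r probe was below the filter, and its ratio used the higher of its own signal and the dimmest measured signal on each control array. The number of arrays limits the precision.

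Groups and replicate numbers came from the labels, and each array was a separate mouse. Replicate numbers were not used to pair the arrays, as the labels do not say that a number marks a shared litter or day. The deviations of same-numbered arrays correlated at −0.144, 0.008 and −0.186. With 3 arrays per group these values cannot exclude a pairing. Some genes of the related lists are not reported here and were left out of the counts of those lists. The members and lists were chosen with earlier results of these data known. All 9 members were named. From each related list, genes with an unadjusted p under 0.05 were named, up to the 6 with the widest change, together with S1pr1, Foxp1, Klf3, Id3, Foxo3, Sgk1, Il2ra, Prdm1 and Foxp3. Of the 19 member probes, 15 had a RefSeq accession, and all 15 matched the same symbol in the RefSeq gene table. Sequences are from RefSeq (GRCm38.p6), read without converting the array's mm9 positions. Alternatives were quantile normalization, the median as scaling point, normexp background correction (offset of 50) with either scaling, the authors' table, other filters, a trended robust fit, array weights, the methods' t-test, the slide as a term, a replicate block, the mean over a gene's probes and leaving out each array.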

Additional observations from a re-analysis of the deposited data

How the results depend on the processing

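With the slide as a term, fitted to the 22262 tested probes with a value on every array, 0 probes passed the adjusted threshold in limma (1644 at an unadjusted p under 0.05). In that fit 0 of the 9 genes were higher at an unadjusted p under 0.05, and the medians of the activation and homing lists were 0.19 and 0.22. Against 54 probes as reported, 28 passed with quantile normalization and with the authors' table, 115 with normexp and quantile normalization, 105 with a trended robust fit, 174 when all arrays had to be above background and 2205 with array weights. The count was 0 with normexp and the 75th percentile (1659 unadjusted), without a filter (4705), with the methods' t-test after Benjamini-Hochberg (4018 at its own threshold) and with the replicate block (3619), and 0 to 1 when 1 array was left out (2865 to 6465 unadjusted). Array weights made 2 of the 9 genes (Ccr7 at 0.69, Lef1 at −0.39) and 8 of the related genes pass. The count of higher genes at an unadjusted p under 0.05, reported as 2, was 1 with the methods' t-test and 1 with the replicate block. It was 3 with normexp and quantile normalization and 3 with array weights. Over left-out arrays it was 1 (without cKO array 3) to 3 (without cKO array 1). Where the count was 3, the added gene was Bach2, with an unadjusted p in limma of 0.039, 0.014 and 0.012 in turn. The count of lower genes went from 0 to 1 with the median as scaling point, normexp and the 75th percentile, the trended robust fit and array weights, and over left-out arrays it was 0 to 1 (without cKO array 3).

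Normexp with the 75th percentile moved the median of all probes from −0.04 to 0.11 and the share of higher calls among unadjusted ones from 50.3% to 67.9% (64.1% with the slide term). Under it the naive and homing medians were −0.20 and 0.0093. Over left-out arrays the FOXO1 median ran from −0.030 (without control array 3) to 0.021, and it was −0.023 without cKO array 2. Of 331 values of member probes under the alternatives, 21 had the opposite sign. With normexp and the 75th percentile these were Klf2 (−0.18 and −0.19), Foxo1 (−0.14 and −0.25) and Satb1 (−0.14), and with array weights Klf2 (−0.11 and −0.18), the dim Lef1 probe (−0.16) and Satb1 (−0.14 and −0.17). Leaving out 1 array gave, with the lowest value in each case without cKO array 3, −0.015 to 0.16 and −0.083 to 0.16 for the Klf2 probes, −0.033 to 0.30 for the second Tcf7 probe, −0.11 to 0.37 for the dim Lef1 probe, and −0.21 to 0.40 and −0.24 to 0.45 for the Satb1 probes. It gave −0.0097 (without cKO array 1) to 0.11 for the second Foxo1 probe and −0.046 (without cKO array 2) to 0.50 for the dim Cd44 probe. The sign also turned for the second Klf2 probe without cKO array 1 (−0.056), the dim Lef1 probe without control array 1 (−0.085) and the second Foxo1 probe without control array 2 (−0.0090). The cause of these differences was not tested. The replicate block changed no adjusted call among the 9 genes. Probes near background, such as the third probes of Il7r, Lef1 and Cd44, limit what their genes can show.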
